A study of Arabidopsis thaliana with 4 samples.

Results

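The stretch described here is the end of the TA probe series of a tiling array, plates 58 to 99, on which chromatin carrying trimethylated lysine 27 of histone H3 (H3K27me3) was mapped in Arabidopsis thaliana. Its members were taken by name alone: every probe called TA, a plate number of 58 to 99, a row letter A to H and a well number, provided that it carries a value. Of 4032 such wells, 4031 have a value, out of 21740 plate and well probes with a value on the whole array. The empty well is TA90E05. The material was seedlings of ecotype col-0, 10 days old per the labels, grown in liquid medium under a long photoperiod and left untreated. DNA immunoprecipitated with a commercial H3K27me3 antibody was hybridised against its own input DNA. There is 1 group, immunoprecipitate against input, with 2 immunoprecipitations (replicates I and II) and 4 arrays, since each replicate was hybridised again with the dyes exchanged. Whole seedlings mix many cell types, so a mark that covers all cells weakly and a mark that covers some cells fully cannot be told apart. The labels do not say that the replicates are separate cultures, and what separates them could be technical.

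Polycomb repressive complex 2 writes H3K27me3. In plants the mark keeps developmental genes silent in the tissues where they are not needed, and it characteristically covers the transcribed part of a silenced gene instead of a single site. Along a tiling array such domains appear as runs of neighbouring probes with raised signal, separated by unmarked genes. The probes are named by plate and well only, and neither their genes, their positions nor their sequences are used here, so that the results concern signal along the order of the names. Well A01 of a plate is followed by A02, row A by row B, and well H12 by A01 of the next plate. The labels and files do not say whether this is the order in the genome. How alike neighbouring wells were is given, plate by plate, before the runs.

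Each value is the authors' score for a probe, which behaves as a log ratio, and both arrays of each exchanged pair carry the same scores (largest difference 0), so n = 2 throughout. The log base and the direction are not stated. A high score is likely immunoprecipitate over input, and the only basis for this is that the distribution is drawn out upwards. Scores are given in units above the median of the 21740 probes, with deposited medians of -0.94 (replicate I) and -1.203 (replicate II). A probe at least 1 unit above this median in both replicates is called an upper probe. Array signal was not used here, so the number of replicates limits the precision.

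The score was raised over much of the stretch. TA plates 58 to 99 held 917 upper probes of 4031 (22.7%), where the whole array held 16.2% and the 17709 probes outside the stretch held 14.7%. Its median scores were 0.34 (replicate I) and 0.21 units (replicate II), against -0.06 and -0.04 units in the rest of the array. The 75th percentile was 1.43 and 0.98 units in the stretch, against 0.78 and 0.50 units in the rest. TA plates 1 to 16 came close, with medians of 0.27 and 0.12 units and 75th percentiles of 1.37 and 0.86 units. On plates 17 to 29 and 30 to 57 the medians were negative in both replicates. Without plate 97, the fullest, 21.1% of the probes were upper, and without plates 96 to 99 the share was 20.3%. The other parts of the TA series held 21.3% on plates 1 to 16, 7.63% on plates 17 to 29 and 5.74% on plates 30 to 57. With 1 group of 2 replicates, none of these differences in share has a test over samples, and neighbouring probes are not independent, so they are descriptions.

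In limma's moderated test of each probe against the array median, fitted on all 21740 probes, 1536 members (38.1%) were above the median at an adjusted p under 0.05, where 27.1% of all probes were. Another 97 members (2.41%) were below it, where 4.81% of all probes were, and 2398 members did not pass on either side. All 917 upper probes were among the 1536, and the other 619 calls reached down to a mean of 0.58 units. With 1 residual degree of freedom per probe, the variance is mostly borrowed from the other probes.

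Both replicates raised mostly the same probes, to different heights. Over the 4031 probes, which share arrays and neighbours, Pearson's r between the replicates was 0.930 and Spearman's rho 0.885, as a description. The mean of the upper probes was 2.39 units in I and 1.77 units in II, and replicate I was the higher for 895 of the 917. Among the 3114 members that were not upper it was the higher for 56.4%. The SD between the replicates, pooled over upper probes, was 0.493 units, and 0.232 units once the mean offset of 0.616 units was taken off. Taken alone, replicate I put 1329 probes (33.0%) past 1 unit and replicate II put 987 (24.5%). Over the whole array these shares were 23.8% and 17.1%. In replicate I only, 412 probes passed (1659 of all 21740), and in replicate II only, 70 did (200 of all 21740). The 412 were not low in replicate II: their median there was 0.69 units, and 319 of them (77.4%) reached 0.5 units. The rule of 1 unit cuts through a continuous range. The closest probe inside was TA70B09, at 1.02 units in replicate I and just past 1 unit in replicate II, and the closest outside was TA84C04, at 1.30 and 0.999 units.

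The highest member that passed the test was TA89E11, which had 4.15 units in I and 3.68 units in II (limma adjusted p = 0.000313, mean of 2 replicates 3.92, SD 0.34). TA86F05 followed with 3.96 and 3.74 units, and then TA76G09 with 3.97 and 3.401 units. TA97C10 reached 3.90 and 3.299 units. TA99G06 had the highest score of the stretch in replicate I, 4.17 units, but 2.97 units in replicate II. These 5 probes lie on 5 different plates, and only TA97C10 belongs to the dense block at plate 97. The lowest members were a neighbouring pair near the start of the stretch, TA58A11 with -1.45 and -1.14 units (limma adjusted p = 0.00234, SD 0.22 over 2 replicates) and TA58A10 at -1.33 and -1.13 units. No other member lay 1 unit or more under the median in each replicate. The next 3, TA73H09, TA73B08 and TA73C12, are all on plate 73, with means of -1.02, -0.95 and -0.92 units. Which probes are called low depends on the centring and on the variance prior, as the closing values show.

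Density by plate was uneven, and no plate was empty. Each of the 42 plates held upper probes, whereas 32 of the 231 plates of the whole array held none. The share per plate had a median of 19.8% and ran between 4.17% and 89.6%, and 27 plates lay above the array's 16.2%. The sparsest were plates 62 and 94, with 4 upper probes each, then plates 59 and 67 with 5 each, plate 78 with 6 and plate 81 with 8. Plate 97 was the fullest, with 86 upper probes of 96 and median scores of 2.85 units (I) and 2.05 units (II). Plate 84 came next with 50 upper probes (52.1%), at medians of 1.59 and 1.06 units. Plate 79 held 45 (46.9%), at medians of 1.39 and 0.94 units, while plate 78 just before it had medians of -0.05 and -0.10 units. Full and sparse plates thus stood side by side. In successive sets of 7 plates the upper share was 11.8% on plates 58 to 64, 20.4% on 65 to 71, 20.2% on 72 to 78, 31.5% on 79 to 85, 20.4% on 86 to 92 and 32.1% on 93 to 99. The first set was the poorest, and the richest sets hold plates 79 and 84 and plate 97.

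**Figure D1:**
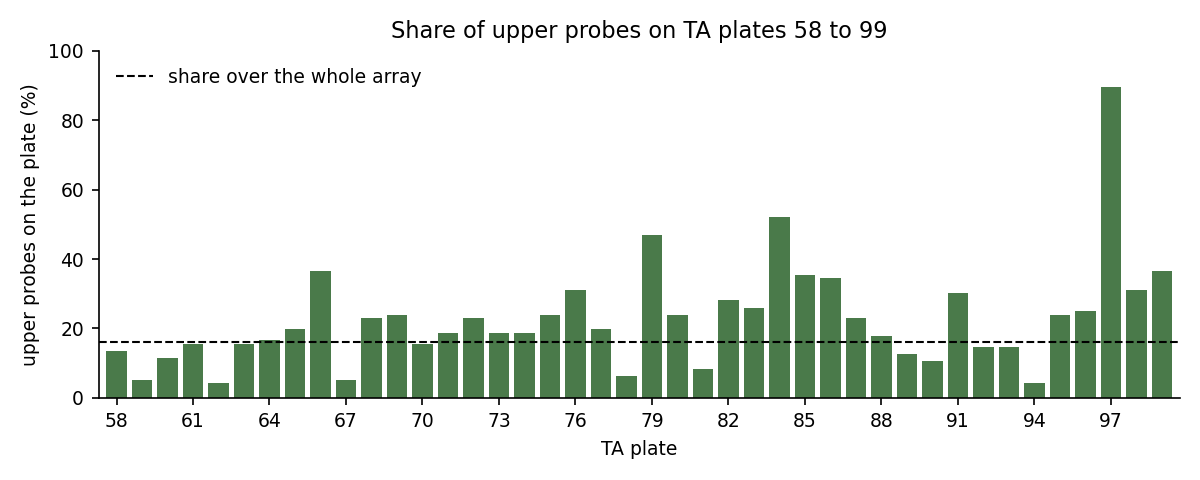
Share of upper probes (percent, vertical axis) on each of TA plates 58 to 99 (horizontal axis), 1 bar per plate; the dashed line is the share over the whole array, 16.2%. Plate 97 stands at 89.6%, plate 84 follows at 52.1%, and plates 62 and 94 are lowest at 4.17%.

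The position of a well on its plate moved with the share. By well column the upper share lay between 19.0% and 24.4%, but by row it was 15.5% in row C and 33.9% in row G, with 26.6% in row F and 28.6% in row H. Without plates 96 to 99 rows C and G stood at 14.3% and 29.2%. In the rest of the array rows lay between 12.3% and 17.4%, and row G was the lowest of them. Among the rows of 12 wells, 138 (41.1%) held no upper probe and 22 held 10 or more. The part of plate position in the counts was not tested.

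Plate 68 stood apart in how alike its neighbouring wells were. On the other 41 plates of the stretch a probe resembled its neighbour: the correlation between replicate I at a well and replicate II at the next, averaged with the reverse, had a median of 0.73 and ran between 0.20 and 0.86. On plate 68 it was -0.31 over 95 pairs, the lowest of the 228 plates of the array on which it could be computed, where the next lowest was 0.01. Probes 8 wells apart on plate 68 correlated at 0.61 over 88 pairs and those 16 wells apart at 0.45, whereas the other plates had medians of 0.09 and -0.03 at these distances. The difference between the correlations at 8 wells and at 1 well was 0.92 on plate 68 and at most 0.07 on any other plate of the array, the next being TA 38. Over the same wells of plate 68 the replicates correlated at 0.81, where over the whole stretch they correlated at 0.930. These correlations are descriptions of wells that share arrays.

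On plate 68, 21 of the 22 upper probes sat in even-numbered wells, against 446 of 895 (49.8%) on the other plates of the stretch, where the share per plate ran between 25% and 57.9%. Read in steps of 8 wells, so that A01 is followed by A09 and B05, neighbours on plate 68 correlated at 0.61, and 12 of 21 upper probes (57.1%) were followed by another, where in name order 1 of 21 (4.76%) was. In that order TA68F12, TA68G08, TA68H04 and TA68H12 stand together, with scores between 2.71 and 3.11 units in replicate I and between 1.71 and 2.47 units in replicate II. In name order each of these 4 probes lies apart from the others. The reading in steps of 8 was chosen after the values were seen. Its neighbours are mostly the same pairs as wells 8 apart in name order, so its correlation of 0.61 repeats the one at that distance. The higher share followed by another is likewise in part built in. Why plate 68 differs was not tested. Counts of runs and gaps below are given in name order, with plate 68 left out beside them where it matters.

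**Figure D2:**
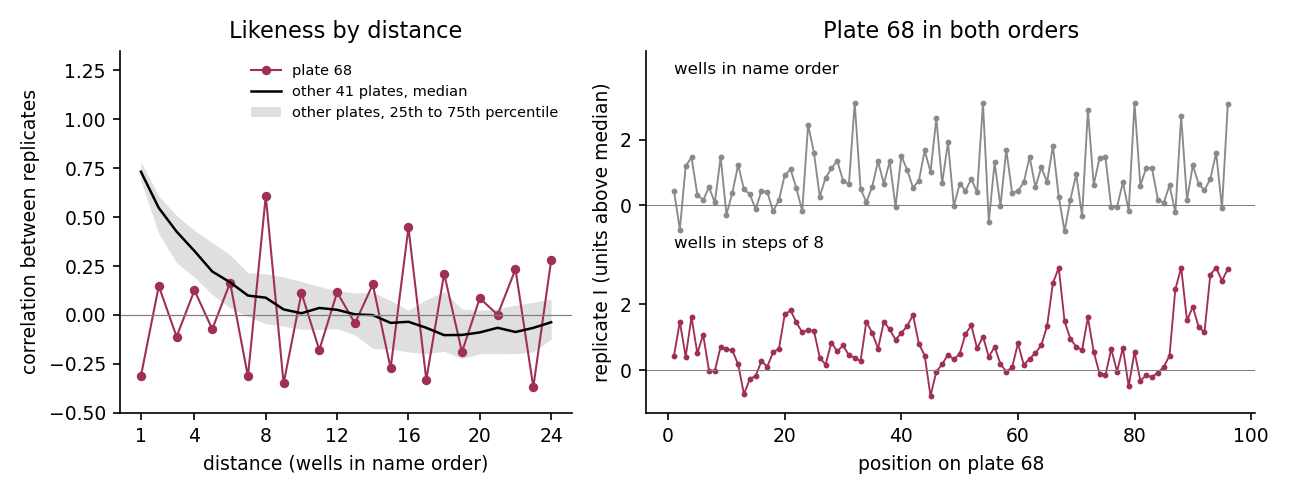
Left, correlation between a probe in one replicate and a probe some wells further in the other (vertical axis) by distance in wells (horizontal axis), for plate 68 (points), with the median (line) and the 25th to 75th percentile (band) of the other 41 plates. Right, replicate I scores of plate 68 in units above the median, in name order (upper trace, offset) and in steps of 8 wells (lower trace); plate 68 reaches 0.61 at 8 wells and -0.31 at 1 well.

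Upper probes lay together in runs. A run is an unbroken set of upper probes in consecutive wells, and the stretch held 234 of them, with a mean length of 3.92 probes (SD 3.66 over runs) and a median of 3. The well after an upper probe was itself upper in 74.6% of 916 cases, against 7.52% after any other probe, and over the whole array these shares were 73.7% and 5.10%. Of the runs, 72 were single probes and held 7.85% of the upper probes, 94 had 2 to 4 probes and held 29.3%, 49 had 5 to 9 and held 34.7%, and 19 had 10 or more and held 28.1%. Of the single probes, 19 were on plate 68, and no other plate had more than 5. Without plate 68 the stretch held 214 runs with a mean of 4.18 probes, 54 of them single, and 76.2% of upper probes were followed by another. Among the other TA plates, runs averaged 3.63 probes on plates 1 to 16, 3.71 on plates 17 to 29 and 2.61 on plates 30 to 57. There 2 of 90, 0 of 24 and 1 of 57 runs reached 10 probes, against 19 of 234 in the stretch.

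The longest run was TA97E12 to TA97G07, 20 probes at 2.999 ± 0.33 units (I) and 2.07 ± 0.53 units (II), with the SD over probes. TA99F02 to TA99G08 followed with 19 probes at 3.26 ± 0.40 and 2.50 ± 0.45 units, the highest mean among the 5 longest runs. TA97C07 to TA97D12 had 18 probes at 3.03 ± 0.40 and 2.28 ± 0.44 units. The first of these 5 runs to lie outside plates 96 to 99 was TA86E11 to TA86G02, with 16 probes at 2.62 ± 0.66 and 2.13 ± 0.68 units. Inside it the score ran between 1.90 and 3.96 units in replicate I, with its peak at TA86F05, so this run was less even than the runs of plate 97. TA96H10 to TA97A12, which crosses a plate boundary, and TA96F10 to TA96G12 had 15 probes each. In all, 6 of the 19 runs of 10 or more probes began on plates 96 to 99, and the other 13 lay between plates 61 and 91.

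Longer runs were higher. To keep the values that set the length apart from those that give the height, runs were taken from replicate I alone and read in replicate II. Their mean height there was 0.88 ± 0.47 units for 105 single probes, 1.06 ± 0.44 for 117 runs of 2 to 4, 1.45 ± 0.38 for 59 runs of 5 to 9 and 1.66 ± 0.38 for 35 runs of 10 or more (SD over runs). As neighbouring probes are alike, a long stretch above a fixed level is higher by construction, and no test was made. The boundaries of long runs were read only at ends with no other upper probe close outside. At the 10 ends of runs of 10 or more that had no upper probe in the 6 wells outside, the first well outside stood at 1.05 ± 0.42 units (I) and 0.53 ± 0.32 units (II). The edge probe itself averaged 2.11 ± 0.67 and 1.52 ± 0.52 units, and the fifth well further in averaged 2.72 ± 0.71 and 2.13 ± 0.61 units (SD over edges). From the second well outward the means lay at or under 0.44 units in both replicates. The edges were placed where the score crosses 1 unit, so a step there is part of their definition. Ends with an upper probe in the 6 wells outside were left out. The low means outside are therefore in part built in and do not describe all ends of long runs.

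**Figure D3:**
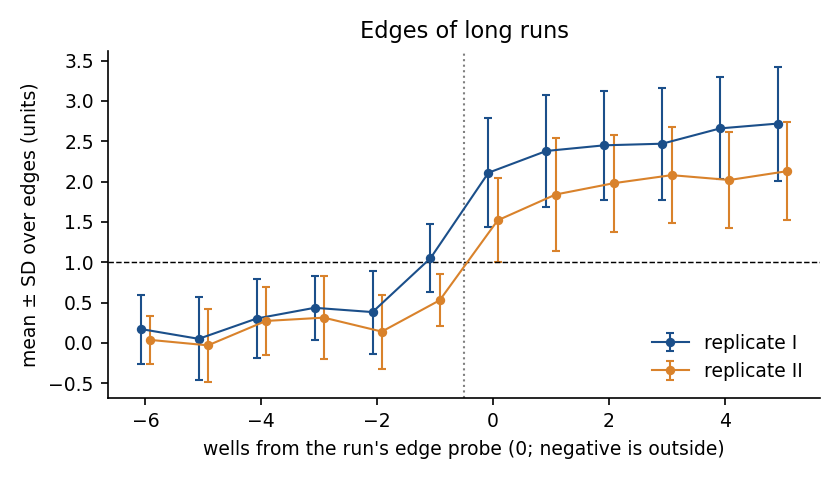
Mean score in units above the median (vertical axis, bars are SD over 10 edges) by distance in wells from the edge probe of runs of 10 or more (horizontal axis, negative is outside), for replicates I and II. Only ends with no upper probe in the 6 wells outside were used. The dotted line is the boundary and the dashed line the rule of 1 unit; the first well outside averages 1.05 and 0.53 units, the edge probe 2.11 and 1.52 units.

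Of the 72 single upper probes, 39 had a neighbour at 1 unit or more in replicate I. Another 9 stood between neighbours that were under 0.5 units in both replicates. Over all members 33.0% of probes passed 1 unit in replicate I, and a probe has a neighbour on either side. The same count was not made for other probes or without plate 68, which held 19 of the 72, so it is not read as a trait of single probes. The highest 3 single upper probes were TA68E06 at 3.11 and 2.26 units, TA68C08 at 3.11 and 2.22 units and TA68H04 at 2.71 and 2.47 units, all on plate 68. Of the 9 lone probes 4 were on plate 68 as well, namely TA68A12, TA68E08, TA68E10 and TA68H04. The other lone probes were TA58F01, TA66A02, TA75C04, TA88A10 and TA89F12, with scores between 1.45 and 1.90 units in replicate I and between 1.07 and 1.36 units in replicate II.

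Gaps between runs were mostly short. Over 233 gaps the median length was 6 probes, the mean 13.3 (SD 18.1) and the quartiles 2 and 17. There were 48 gaps of 1 probe, 67 of 2 to 5, 40 of 6 to 11, 35 of 12 to 23, 30 of 24 to 47 and 13 of 48 or more. Without plate 68 there were 213 gaps, 41 of them of 1 probe. Gap lengths and the scores inside gaps come from the same values, and a gap of 1 probe lies between upper probes, so lower scores in longer gaps are in part built in, and no test was made. The median score in gaps was 0.89 and 0.86 units in replicates I and II for gaps of 1 probe, 0.75 and 0.51 for 2 to 5, 0.33 and 0.18 for 6 to 11, 0.03 and 0.03 for 12 to 23, and -0.13 and -0.10 for 48 or more. Of the 48 probes that alone parted a pair of runs, 23 passed 1 unit in replicate I and not in replicate II, 9 did so the other way round, and 16 lay under 1 unit in both. Only 4 were under 0.5 units in both replicates, TA68E07, TA68E09, TA68H05 and TA68H11, and all 4 are on plate 68. On the other plates no break of 1 probe fell under 0.5 units in both replicates.

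The longest gap ran over 136 probes from TA62A12 to TA63E03, with medians of -0.23 units (I) and -0.21 units (II). Inside it 3 probes passed 1 unit in replicate I and none did in replicate II. This gap did not stay whole under mode centring, equal spread or quantile normalization, where the longest gap was 91 probes. The second ran over 91 probes from TA81B06 to TA82A12, with medians of -0.41 and -0.23 units. The third, 69 probes from TA79H09 to TA80F05, was of another kind. Its medians were 0.37 and 0.11 units, and 11 of its probes passed 1 unit in replicate I. The longest gap on the other TA plates was 109 probes on plates 1 to 16, 359 on plates 17 to 29 and 759 on plates 30 to 57, and the median gap was 6, 12.5 and 13 probes there.

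**Figure D4:**
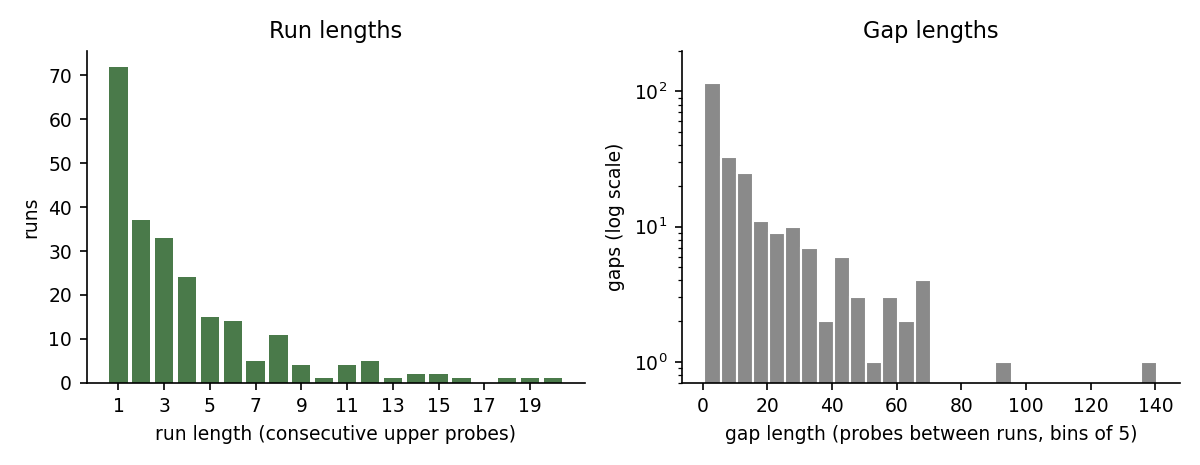
Left, number of runs (vertical axis) by run length in consecutive upper probes (horizontal axis), 234 runs. Right, number of gaps between runs (vertical axis, log scale) by gap length in bins of 5 probes (horizontal axis), 233 gaps; single probes make up 72 runs, the longest run has 20 probes, and the longest gap has 136.

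The dense block around plate 97 began on plate 96 and ended just before the end of plate 97. Chained through upper probes at most 5 wells apart, it ran from TA96F10 to TA97H10 and spanned 121 probes, of which 108 (89.3%) were upper. It held 3% of the probes of the stretch and 11.8% of its upper probes. The chain is built from upper probes and begins and ends on one. Its high upper share and high mean are therefore in part built in. The mean over the block was 2.69 ± 0.75 units (I) and 1.92 ± 0.74 units (II), with the SD over probes. Its upper probes lay between 1.84 and 3.89 units in I and between 1.06 and 3.299 units in II. The replicates correlated at 0.890 inside the block, and replicate I was the higher at 118 of the 121 probes.

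The start of the block was abrupt and its end was not. The 24 wells before it, TA96D10 to TA96F09, held no upper probe, at -0.12 ± 0.48 units (I) and -0.12 ± 0.31 units (II). The well next to the block, TA96F09, was already at 1.68 units in replicate I, but at 0.42 units in replicate II. The first probe of the block, TA96F10, stood at 2.72 and 1.75 units (limma adjusted p = 0.000959, SD 0.68 over 2 replicates). The last probe, TA97H10, stood at 2.01 and 1.40 units. The 24 wells after it averaged 1.83 ± 0.83 and 1.17 ± 0.81 units, held 12 upper probes, and had 20 probes above the median in limma. The scores thus stayed raised past the end of the block, and an upper run resumed at TA98A10. Where the block ends therefore depends on the rule. With upper probes at most 2 wells apart it ran over 91 probes from TA96H10 to TA97H04, and at most 12 wells apart over 158 probes from TA96F10 to TA98C11. With replicate I alone both ends moved, to TA96F09 and TA98C02 (150 probes), while with replicate II alone the block ran from TA96F10 to TA97H10. A rule of 0.5 units gave 149 probes, TA96F10 to TA98C02, and a rule of 1.5 units gave 90 probes, TA96H10 to TA97H03.

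**Figure D5:**
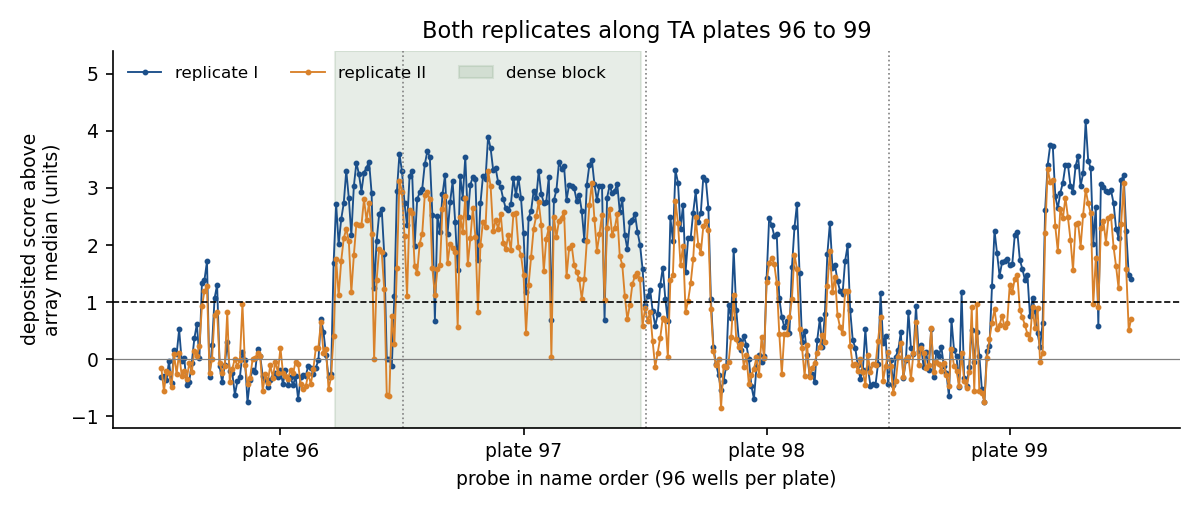
Scores of replicates I and II in units above the array median (vertical axis) for the 384 probes of TA plates 96 to 99 in name order (horizontal axis); the shaded span is the dense block, dotted lines part the plates, and the dashed line is the rule of 1 unit. At the start of the block replicate I passes 1 unit at TA96F09 and replicate II at TA96F10. Earlier on plate 96 both pass it at TA96B06 and TA96B07. Both stay high across most of plate 97 and rise again at the end of plate 99.

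The block consisted of 10 runs parted by 13 probes that were not upper. On plate 97 rows A, D and F were upper in all 12 wells, rows C and G in 11, rows B and E in 10 and row H in 8. In replicate I row C had the highest mean, 3.1 units, and row H the lowest, 2.23 units, with an SD of 0.57 over 12 wells in each. The widest break was TA96H06 to TA96H09, on plate 96. TA96H06 stood at -0.002 and -0.63 units and TA96H07 at -0.0005 and -0.64 units, so that these 2 probes were at or below the array median in both replicates. TA96H08 had -0.11 and 0.76 units, and TA96H09 had 1.11 and 0.27 units. TA96H01 was at 1.24 and 0.002 units. Of these 5 probes on plate 96 none passed limma's test, with adjusted p between 0.0703 and 0.334.

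On plate 97, 8 probes of the block were not upper. TA97B01 stood at 0.68 and 1.12 units and TA97G08 at 0.68 and 1.04 units, and they missed the rule in replicate I. TA97B10 (1.57 and 0.56 units), TA97C06 (1.73 and 0.83 units), TA97E01 (1.18 and 0.47 units), TA97H05 (1.93 and 0.70 units) and TA97H06 (2.39 and 0.96 units) missed it in replicate II. These 7 probes were above the median in limma, with adjusted p between 0.00883 and 0.0330. The remaining one, TA97E11, had 0.68 and 0.04 units and did not pass (limma adjusted p = 0.234).

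No other part of the stretch approached this extent. By the same chaining rule the stretch held 134 chains, of which 2 spanned 50 probes or more. The second was TA84C05 to TA84G07, with 51 probes, 44 of them upper, at 2.21 ± 0.88 units (I) and 1.58 ± 0.79 units (II). The third, TA99F02 to TA99H10, spanned 33 probes, 31 of them upper, at 2.97 ± 0.64 and 2.27 ± 0.60 units. It was higher on average than the block at plate 97, in both replicates, and it ended 2 wells before the series did. The last wells, TA99H11 at 1.48 and 0.51 units and TA99H12 at 1.40 and 0.71 units, were still above the median in limma (adjusted p = 0.0284 and 0.0120). The first 2 probes of the next series by name lay near the array median, TB01A01 at -0.12 and 0.0045 units and TB01A02 at 0.08 and -0.164 units. No more of that series was read here.

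Some sets of neighbouring probes passed 1 unit in replicate I and not in replicate II. The longest such set was TA99D05 to TA99D11, 7 wells with scores between 1.27 and 2.25 units in replicate I and between 0.54 and 0.87 units in replicate II. It lies directly before a run of 4 upper probes, TA99D12 to TA99E03. TA58H12 to TA59A04 and TA59H04 to TA59H08 were sets of 5, with means of 1.43 and 1.47 units in replicate I and 0.80 and 0.62 units in replicate II. Plate 59, which holds most of both sets, was among the sparsest by the rule, with 5 upper probes. These sets were chosen after their values were seen.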

How the data were processed

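H3K27me3 immunoprecipitates and inputs were compared on 4 dual-colour arrays, 2 per replicate with the dyes exchanged. The authors deposited 1 score per probe and array; no source used here gives its background correction, normalization, log base, direction or array design. The submitters' labels state direct labelling after amplification. Here the identical arrays of a dye exchange were averaged, each replicate was centred on its median over 21740 probes, and upper probes, runs, gaps and chains (at most 5 wells apart) were counted in name order. A missing well ends a run. limma (lmFit and eBayes, intercept only, two-sided) was fitted on all probes, with Benjamini-Hochberg adjustment at 0.05. The limma and neighbour-counting steps were tested on simulated data. Members, rules and lists were chosen with earlier results of these data known. Named probes were the 5 highest and 5 lowest past the test, the ends and peaks of the 5 longest runs, the block's ends and breaks, the 3 highest single probes, those nearest the rule, and the ends of the 3 longest gaps. Alternatives were other centrings, equal spread, quantile normalization, rules of 0.5 and 1.5 units, 1 replicate, other chaining and joining, a stricter threshold and another variance prior. The readings of plate 68 and the choice of sets seen in replicate I only came after the data were seen. limma was version 3.58.1 (in R 4.3.3). Counts used pandas 2.3.3 and numpy 2.4.6, mode centring scipy 1.17.1, and plots matplotlib 3.10.9, under Python 3.11.15.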

Additional observations from a re-analysis of the deposited data

How the results depend on the processing

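The values as deposited, without centring, gave 212 upper probes, 101 runs, 52.4% followed by another, a longest gap of 245 probes, a block of 23 probes, 0 plates with most probes upper and 649 limma calls above 0 (2518 over all 21740 probes); centring sets what counts as 0, so these follow from its construction. A rule of 0.5 units gave 1452 upper probes (36.0%, against 25.6% of all probes), 360 runs, a longest gap of 54 and 6 such plates. A rule of 1.5 units gave 569 upper probes (14.1%, against 9.98% of all probes), 67.1% followed by another and 1 such plate. With 1 replicate left out the longest gap was 63 to 136 probes and such plates numbered 2 to 4, both moved by leaving out replicate II. In total, 49 of 65 recomputed values kept to the main one within 1.5 times, or within the spread of the single replicates for the share followed by another, and 16 did not. Among the former were all values under mode centring, equal spread and quantile normalization, and those without plate 68 or with it read in steps of 8, both chosen after seeing the data. Under these other scalings the longest gap was 91 probes against 136, close to the limit of 1.5 times. The tally is not a measure of stability, since some values had little or no room to move. Reading plate 68 in steps of 8 cannot change which probes are upper, and leaving it out can change their number little. The spread used for the share followed by another comes from the same single replicates that were set against it. The upper share exceeded that of the rest of the array under each scaling, rule and single replicate tried (5.26% against 3.51% without centring, 27.6% against 17.8% with mode centring). Calls below the median numbered 97 of 4031 members, against 1046 of all 21740 probes. They were 5 against 37 with mode centring, 7 against 46 at adjusted p under 0.01, 439 against 3981 with equal spread, 453 against 4049 with quantile normalization, 609 against 5147 with the trended and robust prior and 2273 against 14914 without centring; the cause was not tested. Fits with 1 replicate have no residual degrees of freedom and no test. No paired analysis was possible because there is 1 group. No measure of signal over background entered, which limits what can be said of dim probes.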
